A study of Sus scrofa with 13 samples.

Results

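The genes of the integrin and laminin families were examined for 5-hydroxymethylcytosine (5hmC) in pig mesenchymal stem cells kept at low or ordinary oxygen. Members were taken by gene symbol, with earlier results of these data known. The rule took every row of the count tables named as an integrin alpha or beta subunit or a laminin alpha, beta or gamma chain. The rule found 38 genes among 27339 gene rows, of which 26 were integrin and 12 laminin genes. The adipose-derived mesenchymal stem cells were isolated from abdominal fat, and the animals were domestic female pigs. Per the labels, the fat was excised 3 weeks after a coil had been placed in a renal artery to narrow it, in animals fed a 2% high-cholesterol diet. The labels name no animal for a library, and no library from cells of healthy pigs was compared here. Both groups were expanded in medium with platelet lysate and differed in the oxygen of the last culture step, which was 1% for 48 hours in the 6 hypoxia libraries and 20% in the 6 normoxia libraries. DNA was fragmented, denatured and captured with an anti-5hmC antibody. The sample titles carry the numbers 110, 16, 21, 33, 49 and 4, and each number occurs once per group. The labels do not explain these numbers. The p-values therefore reflect variation among these particular libraries, and part of it may be technical.

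Integrins are cell-surface receptors made of 1 alpha and 1 beta subunit. They bind matrix proteins or proteins on other cells outside, and link to the actin cytoskeleton inside. Laminins are cross-shaped trimers of an alpha, a beta and a gamma chain that form the sheet of basement membranes, and several integrins are laminin receptors. In cultured stromal cells, integrins carry attachment to the dish and to the matrix the cells lay down. 5hmC is made from 5-methylcytosine by the TET enzymes, which need oxygen, and is often found in the bodies of expressed genes. A 5hmC read count is a measure on DNA and does not give the amount of RNA.

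Coverage of single genes was modest. Libraries totalled 15569948 to 27428482 counted reads, and 263578 to 714002 of these (1.69 to 2.89%) were assigned to genes. Levels are given as counts-per-million (CPM) relative to gene reads after TMM scaling, a correction for differences in composition between libraries. On that scale, 1 read was worth 1.54 to 4.83 CPM. Gene length was not used, so levels are not compared between genes. Which part of a gene was counted is not known, so the values may not cover whole genes. Marker genes did not serve as a check of the cell type, because they were read on DNA. The summed level of 15 stromal markers was 1390 to 2060 CPM in hypoxia and 1410 to 2680 CPM in normoxia, and that of 11 leukocyte markers 585 to 779 and 487 to 966 CPM. No marker was at 0 in all libraries. The pairing of numbers 33 and 4 was in doubt. Across genes, the hypoxia library of number 33 correlated at 0.494 with the normoxia library of number 4 and at 0.405 with its own pair, and the hypoxia library of number 4 at 0.401 with the normoxia library of number 33 and at 0.13 with its own pair. Counts of numbers that went one way, and all fits with the number as a block, rest on the labelled pairs.

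The members took 0.4117 ± 0.00866% of gene reads in hypoxia and 0.433 ± 0.0298% in normoxia (mean ± SD of 6 libraries). Integrin genes made up 0.2298 ± 0.00991% and 0.2382 ± 0.0148%, and laminin genes 0.1818 ± 0.00891% and 0.1947 ± 0.0254%. On each of these shares the hypoxia mean lay within 1 normoxia SD of the normoxia mean. For all members and for laminin genes the gap was larger than 1 hypoxia SD. By pair, the share of all members was lower in hypoxia at numbers 110, 16, 33 and 49 and higher at numbers 21 and 4. These shares were not tested.

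Of the 38 members, 31 had enough reads to be tested (22 integrin and 9 laminin genes), and 7 did not. Among the 7, ITGB2, the beta subunit shared by leukocyte integrins, had 0 to 5 reads per library, with 9 reads over all hypoxia libraries and 10 over all normoxia libraries. It had no read in the hypoxia libraries of numbers 110, 16 and 49. There 3 counts, about the 95% upper limit for a count of 0 under sampling noise alone, would have been 7.43, 9.27 and 6.52 CPM. ITGA2B, the platelet alpha subunit, had 4 to 33 reads, ITGA7, a laminin receptor of muscle, 2 to 23, and ITGB4, the hemidesmosome subunit of epithelia, 2 to 21. LAMA5 had 2 to 29 reads, LAMC3 2 to 26 and LAMB3, the beta chain of an epithelial laminin, 1 to 13. These genes entered no test of the main fit. With no count filter all 38 members were tested, and 0 had an adjusted p or an unadjusted p under 0.05 (edgeR). In sequencing lane 8 alone, which holds numbers 49 and 4, LAMA5 had an unadjusted p under 0.05 and 0 of 36 members passed after adjustment.

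**Figure D1:**
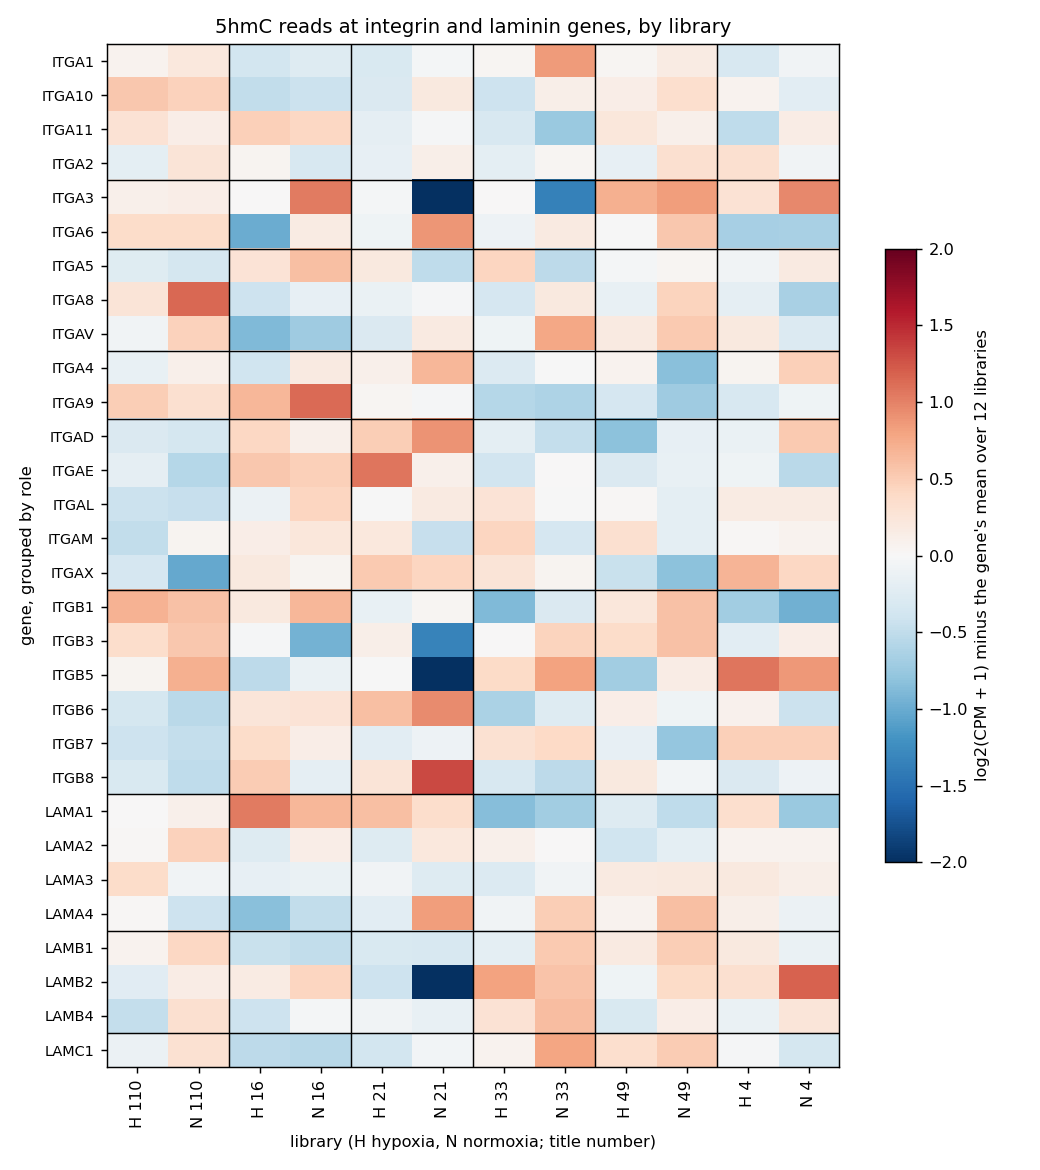
Level of 30 of the 31 tested integrin and laminin genes (rows, grouped by role) in each of the 12 libraries (columns, H hypoxia and N normoxia, paired by title number). Colour is log2(CPM + 1) minus that gene's mean over the 12 libraries, and values beyond the scale are drawn at its end. The normoxia library of number 21 holds the 3 darkest blue cells among ITGA3, ITGB5 and LAMB2, at 1 read each.

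The first comparison asked whether 5hmC at these genes differed between cells at 1% and at 20% oxygen, with libraries of the same title number compared with each other. No integrin or laminin gene passed the test: 0 of 31 had an adjusted p under 0.05 (edgeR's quasi-likelihood test with the number as a block, Benjamini-Hochberg adjustment over all 11868 tested genes). Over all tested genes the share that passed was 0.0337%, which is 4 genes (SFTA2, PPP1R3C, SHMT2 and LOC110260784), none of them a member. At an unadjusted p under 0.05 there was 1 member, LAMB4, against 7.09% of all tested genes. With scaling to library size alone the 1 member was LAMA1 instead. ITGA8 and ITGAV reached it in some runs that left out numbers, as given below. With DESeq2, and with edgeR without the block, 0 of 31 passed the adjusted threshold and 0 had an unadjusted p under 0.05. In this bulk signal, fewer cells carrying 5hmC at a gene and less of it per cell cannot be told apart.

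The intervals limit how large a difference these libraries leave room for. In the blocked fit, the 95% intervals of all 31 tested members lay within a 2-fold difference in either direction, and those of 14 lay within 1.5-fold. Of all 11868 tested genes, 10471 lay within 2-fold and 3208 within 1.5-fold. ITGA6 came closest to the 2-fold bound, with a lower end of −0.983 in log2. These bounds rest on the labelled pairs. Without the block, standard errors were larger at every tested member but ITGA4, such as 0.377 against 0.301 at ITGA3 and 0.295 against 0.254 at ITGA6. With the block, the median standard error of the members' log2 fold changes was 0.198, against 0.248 over all tested genes. Of the 31, 9 log2 fold changes were above 0 and 22 below, with a median of −0.145. Over all tested genes 46.6% were above 0, with a median of −0.0212. With scaling to library size alone, 13 members were above 0 and 18 below, with a median of −0.0896, and 54.7% of all genes were above 0, with a median of 0.0287. These counts and medians are descriptions, and neither was tested.

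**Figure D2:**
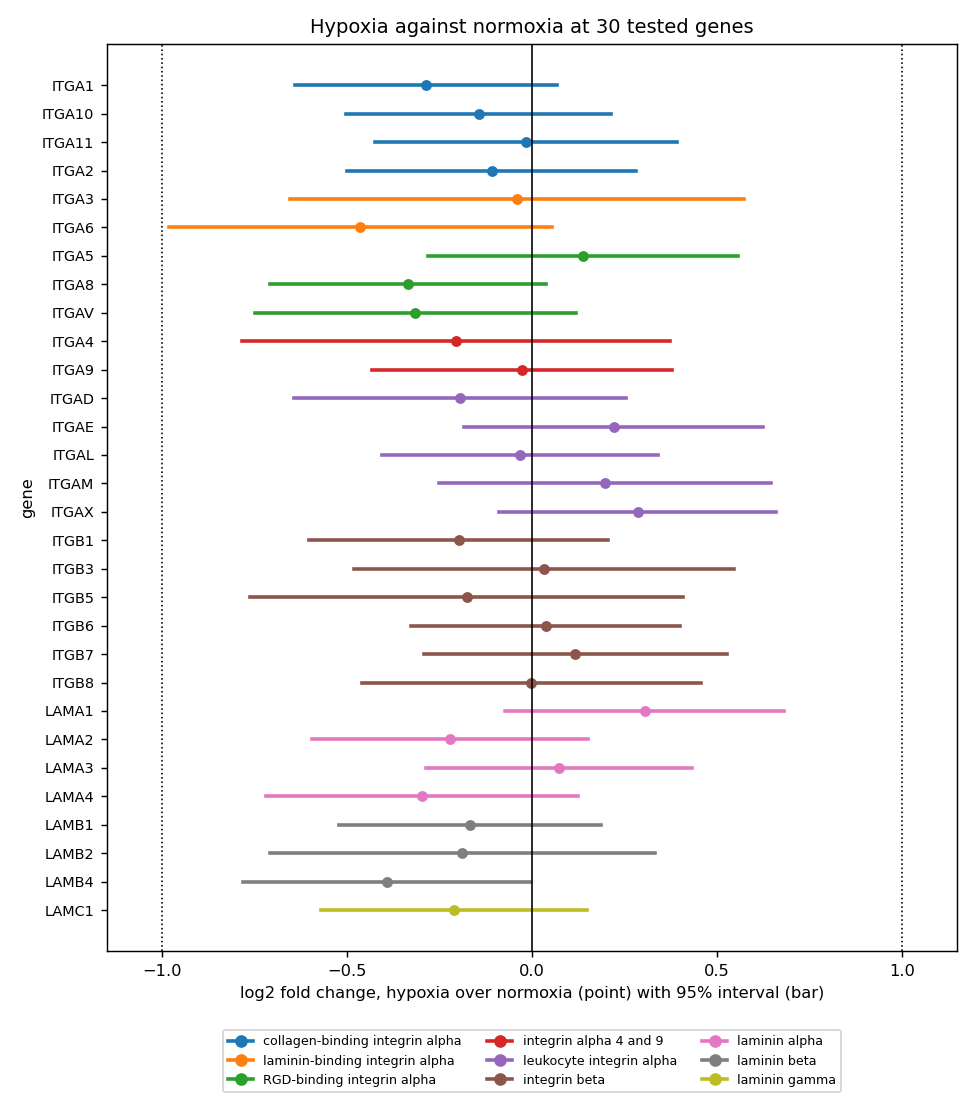
Log2 fold change of 30 of the 31 tested genes, hypoxia over normoxia, from the blocked edgeR fit (point) with its 95% interval (bar), coloured by role. Dotted lines mark a 2-fold difference in each direction; every bar drawn lies between them, and only the bar of LAMB4 does not reach 0.

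Integrin alpha subunits that bind collagen were all below 0 in log2 fold change (4 of 4 tested, median −0.128), and none passed the test. ITGA1, which with beta 1 forms a receptor for type IV and other collagens, ranged from 173 to 235 CPM in hypoxia (median 206) and from 187 to 405 CPM in normoxia (median 234). The groups overlapped, but the hypoxia library was the lower of the pair at each of the 6 numbers. Its log2 fold change was −0.29 ± 0.174 (SE; adjusted p = 0.786, edgeR), and −0.18 without number 33 or −0.15 without numbers 33 and 4. A gap this consistent in direction over all 6 numbers was seen at 2 of 31 members, ITGA1 and ITGAX, and at 4.26% of all tested genes, in either direction. The normoxia library of number 33 stood highest at ITGA1, at 405 CPM, and its pair differed most, with 230 CPM in hypoxia. ITGA10, a collagen receptor of cartilage, had 231 ± 67.3 CPM in hypoxia and 255 ± 56.8 CPM in normoxia (SD over 6 libraries each), with a log2 fold change of −0.15 ± 0.175. ITGA2, the alpha subunit of another collagen receptor, had a log2 fold change of −0.11 ± 0.192, and ITGA11, a collagen receptor of fibroblasts, −0.017 ± 0.201. In the RefSeq table ITGA1 and ITGA2 lie next to each other with 1 gene between them, so the members are not all independent in position.

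The laminin-binding alpha subunits ITGA3 and ITGA6 had log2 fold changes of −0.042 ± 0.301 and −0.47 ± 0.254. ITGA6, which pairs with beta 1 or beta 4, had adjusted p = 0.719 (edgeR). Its levels were 21.6 to 57 CPM in hypoxia (median 41.1) and 27.7 to 82.1 CPM in normoxia (median 53.3). The 2 ranges overlapped, and the pair of number 110 was equal at 57 CPM. Its reads were few, at 7 to 32 per library. ITGA3 had 1 read in the normoxia library of number 21 and 5 in that of number 33, against 12 to 47 in the other 10 libraries, and its log2 fold change was −0.23 without number 21.

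The alpha subunits that recognise the short RGD motif in fibronectin and similar proteins gave 1 log2 fold change above 0 and 2 below (median −0.316), and none passed the test. ITGA8, whose best-known ligand is nephronectin, a matrix protein of the developing kidney, had 223 to 357 CPM in hypoxia (median 266) and 191 to 665 CPM in normoxia (median 319). The hypoxia libraries sat inside the normoxia range, and the hypoxia library was lower at 5 of 6 numbers. Number 4 went the other way, with 263 CPM in hypoxia and 191 CPM in normoxia. The log2 fold change was −0.34 ± 0.183 (adjusted p = 0.717, edgeR), −0.18 without number 110 and −0.033 in lane 8 alone. Both libraries of number 110 were the highest of their group at ITGA8, at 357 and 665 CPM. ITGAV, which pairs with several beta subunits, had a log2 fold change of −0.32 ± 0.213 and was lower in hypoxia at 5 of 6 numbers. Without number 4 it had an unadjusted p under 0.05 and did not pass after adjustment (edgeR). ITGA5, the fibronectin receptor subunit, was at 111 ± 19.2 and 101 ± 33 CPM, with a log2 fold change of 0.14 ± 0.206.

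ITGA4 and ITGA9 encode related alpha subunits that bind VCAM1. ITGA4 had a log2 fold change of −0.21 ± 0.284, from 8 to 30 reads per library. ITGA9 was at 97.7 ± 34.8 CPM in hypoxia and 103 ± 54.9 CPM in normoxia (SD over 6 libraries each), with a log2 fold change of −0.028 ± 0.199. The sign of so small a value was not fixed: with scaling to library size alone it was 0.018.

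Leukocyte integrin alpha subunits pair with beta 2 or beta 7 and are best known on immune cells. Here 3 of 5 were above 0 (median 0.197), and none passed the test. ITGAX, which marks many dendritic cells and macrophages, had 89.1 to 196 CPM in hypoxia (median 143) and 59.3 to 164 CPM in normoxia (median 126). The groups overlapped, and the hypoxia library was the higher of the pair at each of the 6 numbers. Its log2 fold change was 0.29 ± 0.184 (adjusted p = 0.812, edgeR), and 0.32 without numbers 33 and 4. The largest ratio was at number 110, at 96.6 against 59.3 CPM, from 39 and 25 reads.

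ITGAE, which pairs with beta 7 and binds E-cadherin, had 89.8 to 247 CPM in hypoxia (median 107) and 78.3 to 164 CPM in normoxia (median 112). The hypoxia library of number 21 stood above all others, and the log2 fold change of 0.22 ± 0.198 was 0.085 without that number. ITGAM, a receptor for complement fragments on myeloid cells, was at 80.4 ± 16.4 and 69.1 ± 12.8 CPM, with a log2 fold change of 0.2 ± 0.221 and 3 of 6 numbers higher. ITGAL, whose ligands are the ICAM proteins, had a log2 fold change of −0.033 ± 0.182, and of 0.02 with scaling to library size alone. ITGAD was at −0.2 ± 0.221.

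Of the 11 leukocyte markers, 8 were tested, 7 of them above 0 (median log2 fold change 0.247). None had an adjusted p under 0.05, and 2 reached 0.05 before adjustment (0 when the block was dropped), against 7.09% of all tested genes with the block. These were SPI1 and IKZF1, transcription factors of blood cells, with log2 fold changes of 0.57 ± 0.267 and 0.41 ± 0.195 (adjusted p = 0.696 and 0.697, edgeR). Over all tested genes 46.6% were above 0. Of 13 tested stromal markers 9 were below 0 (median −0.184), and of 7 endothelial markers 6 were above 0 (median 0.0977), none with an adjusted p under 0.05. Of 3 tested smooth muscle markers 2 were below 0, and ACTA2, smooth muscle actin, was lower in hypoxia at 6 of 6 numbers (−0.77 ± 0.221, adjusted p = 0.354, edgeR). A shared direction at 6 of 6 numbers was seen at 4.26% of all tested genes. Of 7 epithelial markers 3 were tested, and 2 of these were above 0. The part of these cell type markers in the integrin and laminin values was not tested. ITGAD, ITGAX and ITGAM are close relatives in sequence and lie in 1 cluster in the RefSeq table, with no gene between the first 2 and 1 gene between the latter 2. How the counting treated reads that match more than 1 of them is not given in the sources used here, so values for these 3 genes are uncertain.

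Of the 6 tested integrin beta subunits 3 were above 0 (median 0.0146), and without the block 2 were (median −0.0359). ITGB1, the partner of most matrix-binding alpha subunits, had 50.8 to 154 CPM in hypoxia (median 96.6) and 47.8 to 150 CPM in normoxia (median 119). The 2 ranges nearly coincided, and the log2 fold change was −0.2 ± 0.198 (adjusted p = 0.904, edgeR). ITGB6, an epithelial partner of alpha V that activates TGF-beta, was at 210 ± 62.1 and 212 ± 93.1 CPM, with a log2 fold change of 0.036 ± 0.178. ITGB3, ITGB5, ITGB7 and ITGB8 had log2 fold changes of 0.032 ± 0.253, −0.18 ± 0.287, 0.12 ± 0.201 and −0.0025 ± 0.225. ITGB3 was at −0.12 without number 21. For ITGB8, which with alpha V activates TGF-beta, the estimate near 0 rested on number 21, without which it was 0.23. For ITGB5, which had 1 read in the normoxia library of number 21, the estimate was −0.35 without that number.

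**Figure D3:**
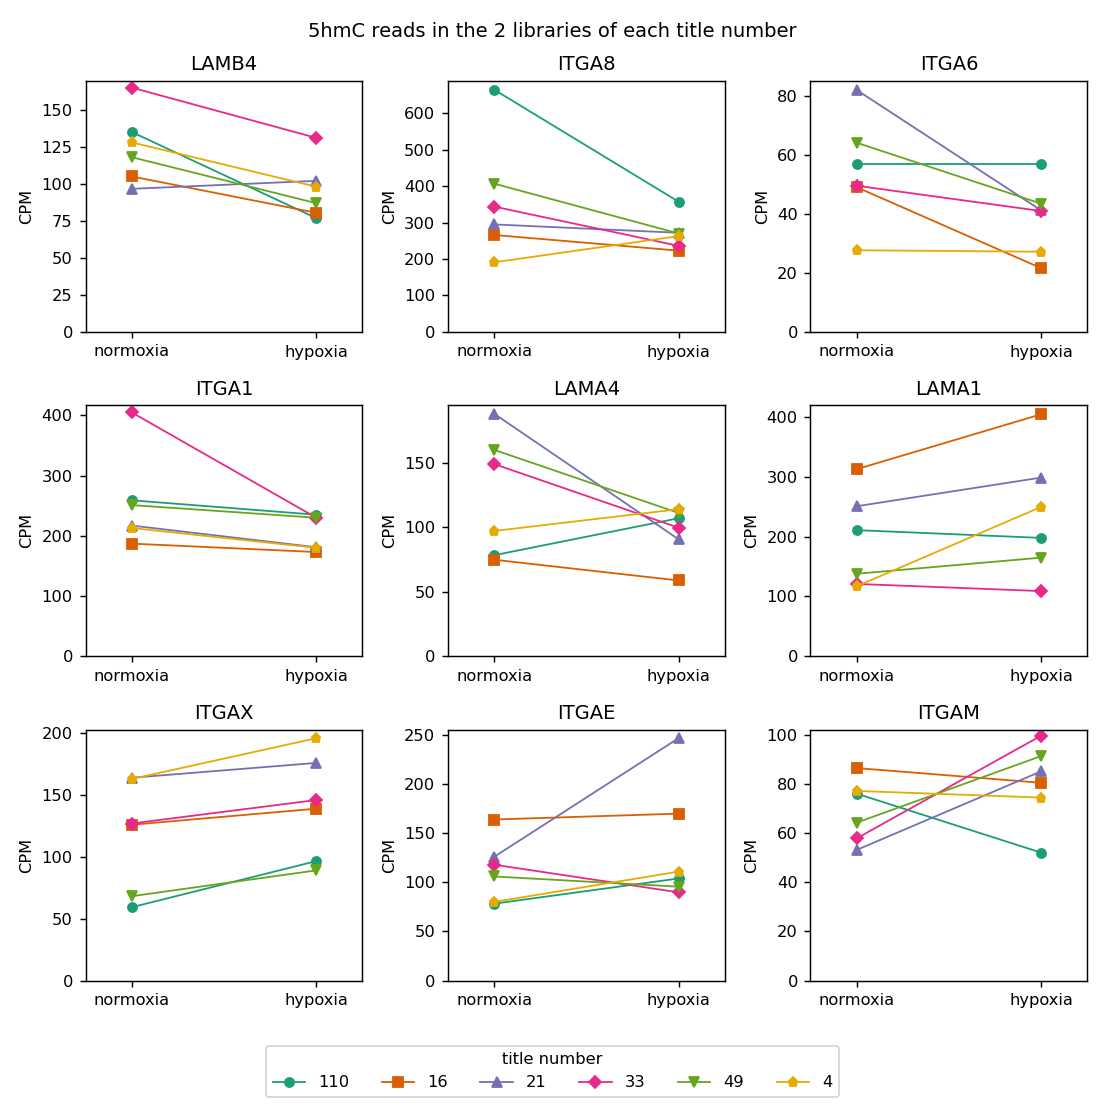
CPM of 9 genes in the normoxia and hypoxia library of each title number, joined by a line. The panels show the members with the smallest p values in each direction among integrin and laminin genes, except LAMA3; all 6 lines slope down at ITGA1 and up at ITGAX, and the other 7 panels mix directions or hold a level line.

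Laminin alpha chains carry the binding sites for cell receptors. Of 4 tested, 2 were above 0 and 2 below. LAMA1, the alpha chain of early basement membranes, had 109 to 405 CPM in hypoxia (median 224) and 117 to 313 CPM in normoxia (median 175). The ranges overlapped, with 4 of 6 numbers higher in hypoxia, and the widest gap was at number 4, at 250 against 117 CPM. Its log2 fold change was 0.31 ± 0.185 (adjusted p = 0.79, edgeR). It rested largely on number 4, without which it was 0.14. LAMA4, the chain of blood vessel basement membranes that adipose tissue also holds, had 58.7 to 114 CPM in hypoxia (median 103) and 74.8 to 188 CPM in normoxia (median 123). It was lower in hypoxia at 4 of 6 numbers, with a log2 fold change of −0.3 ± 0.207 (adjusted p = 0.832, edgeR), and of −0.15 without number 21. LAMA2, the alpha chain of muscle, was at −0.22 ± 0.183, and LAMA3, an epithelial chain, at 168 ± 28.6 and 159 ± 18.3 CPM with a log2 fold change of 0.073 ± 0.177.

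All 3 tested laminin beta chains were below 0 (median −0.189). LAMB4, the least studied of the beta chains, had 76.8 to 131 CPM in hypoxia (median 92.5) and 96.6 to 165 CPM in normoxia (median 123). The groups overlapped, and hypoxia was lower at 5 of 6 numbers, all but number 21. Its log2 fold change of −0.39 ± 0.19 had the smallest p of the members (unadjusted p = 0.0468, adjusted p = 0.7, edgeR's quasi-likelihood test). LAMB1, a chain of most laminins, was covered by 89 to 378 reads per library. It had 396 to 617 CPM in hypoxia (median 519) and 383 to 774 CPM in normoxia (median 603), and 3 of 6 numbers were lower in hypoxia. Its log2 fold change was −0.17 ± 0.174. LAMB1 and LAMB4 lie on either side of 1 gene in the RefSeq table. LAMB2, a chain of kidney and muscle basement membranes, was at −0.19 ± 0.256, and at −0.36 without number 21, whose normoxia library had 1 read there.

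Among the gamma chains, LAMC1, the gamma chain of most laminins, was at 258 ± 56 and 309 ± 110 CPM, with a log2 fold change of −0.21 ± 0.177.

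Within each title number, the median log2 ratio of the 31 members was −0.0251 for number 110, −0.104 for 16, −0.155 for 21, −0.265 for 33, −0.151 for 49 and 0.00681 for 4. The medians of all tested genes lay between −0.0491 and 0.00781, and were below 0 at every number but 16. The members' median was below 0 at every number but 4. At each of numbers 16, 33 and 49, 11 members were higher in hypoxia and 20 lower. The split was 15 higher and 16 lower at number 110, 13 and 18 at number 21, and 17 and 14 at number 4. Since the 2 libraries of a number set all of these ratios, the 31 genes are not separate replicates of the comparison.

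**Figure D4:**
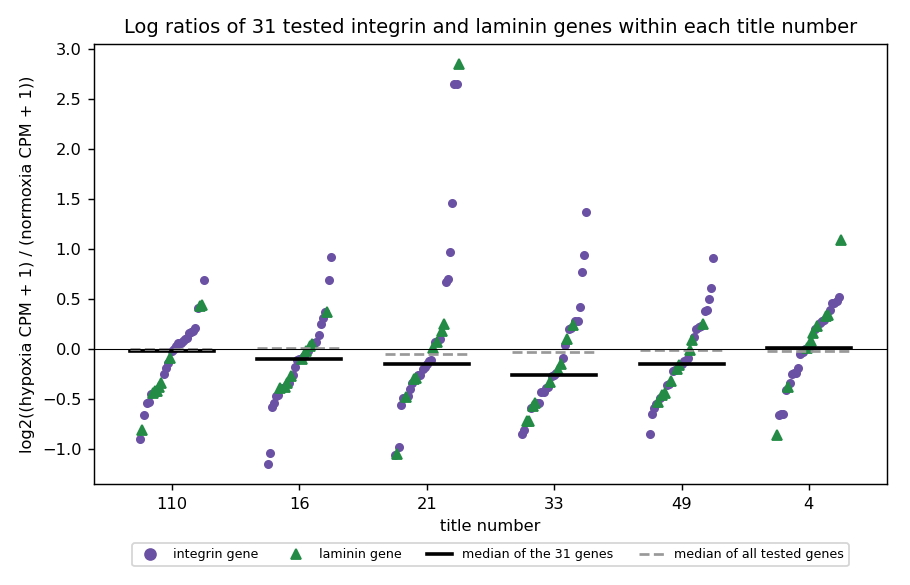
Log2 ratio of hypoxia to normoxia CPM (1 added to each) for the 31 tested genes within each title number, ordered by size (circles integrin, triangles laminin genes). Solid bars give the median of the 31 genes and dashed bars that of all tested genes; the solid bar is lowest at number 33, at −0.265, and the highest points belong to number 21.

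A second comparison, added after seeing the data, asked whether the members differed between title numbers whatever the oxygen. In an F test of the number terms in the same edgeR fit, 5 of 31 members (16.1%) had an adjusted p under 0.05, against 12.8% of all tested genes. The members' share was near the background in this fit. With DESeq2's likelihood ratio test the shares were 16.1% and 7.94%. The 5 were LAMA1, ITGA9, ITGB1, ITGAX and ITGB6. LAMA1 differed most by its test (adjusted p = 0.00606, edgeR): number 16 was high in both libraries, at 405 and 313 CPM, and number 33 low in both, at 109 and 121 CPM. The mean of number 16 was 3.11-fold that of number 33. ITGA9 had the same 2 numbers at its ends, with 148 and 206 CPM at number 16 and 62.5 and 60.6 CPM at number 33 (2.88-fold, adjusted p = 0.00858, edgeR).

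ITGB1 was highest at number 110, with 154 CPM in hypoxia and 142 CPM in normoxia, and lowest at number 4, with 58.1 and 47.8 CPM (2.8-fold, adjusted p = 0.00951, edgeR). ITGAX ran from 96.6 and 59.3 CPM at number 110 to 196 and 163 CPM at number 4 (2.3-fold, adjusted p = 0.0179, edgeR). ITGB6 ran from 156 and 138 CPM at number 110 to 305 and 386 CPM at number 21 (2.35-fold, adjusted p = 0.0292, edgeR). The 5 genes did not share 1 order of the numbers: number 110 was highest at ITGB1 and lowest at ITGAX and ITGB6.

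**Figure D5:**
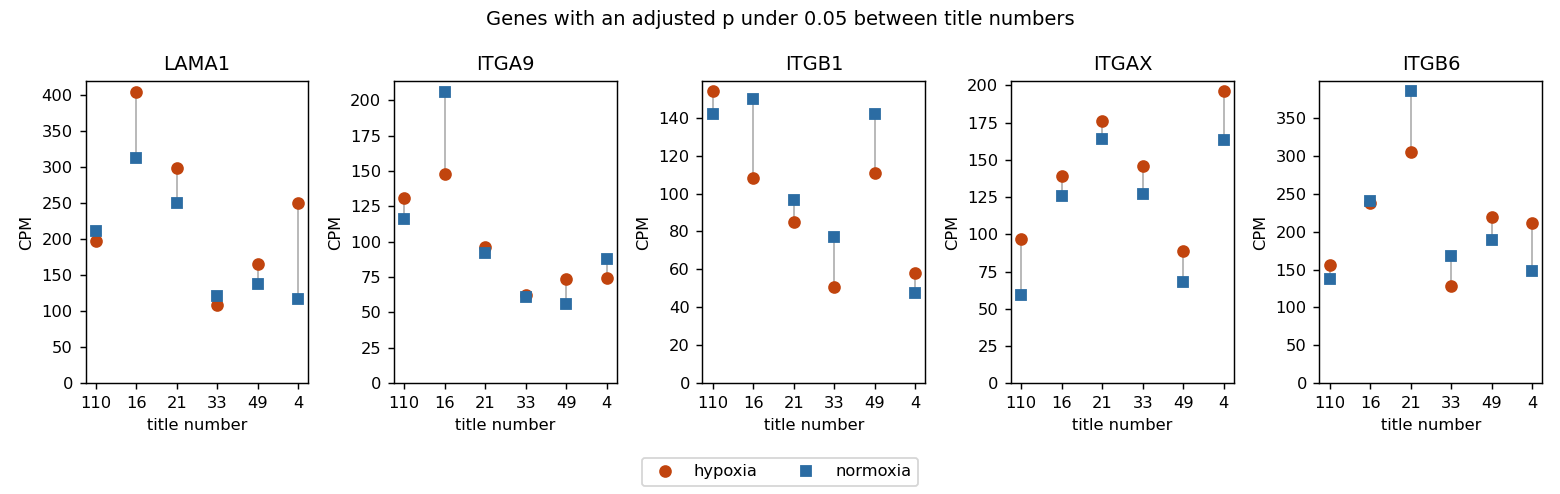
CPM of the 5 genes with an adjusted p under 0.05 between title numbers, in the hypoxia (circle) and normoxia (square) library of each number, joined by a grey line. At LAMA1 and ITGA9 both libraries of number 16 lie at the top and both of number 33 near the bottom; at LAMA1 the normoxia library of number 4, at 117 CPM, is as low.

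These differences rested in part on single numbers. LAMA1 and ITGA9 had adjusted p = 0.0964 and 0.228 without number 16, ITGAX 0.104 without number 110 and 0.106 without number 49, and ITGB1 0.0523 without number 4 (edgeR). ITGB6 had adjusted p = 0.0921, 0.191 and 0.066 without number 110, 21 and 33 in turn. Scaling and filtering also mattered: with total reads as library size ITGB6 and ITGAX had adjusted p = 0.24 and 0.0507, and with no count filter ITGB6 had 0.0738 (edgeR). Without numbers 33 and 4, LAMA1 alone passed (adjusted p = 0.0478, edgeR), and 2.52% of all tested genes did. File names placed numbers 110, 16, 21 and 33 in sequencing lane 7 and numbers 49 and 4 in lane 8, so a lane and its numbers cannot be told apart. Within lane 7, ITGA9, ITGB6 and LAMA1 passed (adjusted p = 0.0293, 0.024 and 0.00833, edgeR).

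Genes that work with integrins and laminins were read in the same fit, from 3 lists chosen with earlier results of these data known. Over all 11868 tested genes, 53.4% were below 0 and 7.09% had an unadjusted p under 0.05 (edgeR). Without the block, 324 of all tested genes had an unadjusted p under 0.05 (edgeR). Of 41 cytoplasmic integrin partners 33 were tested, 8 above 0 and 25 below (median −0.0636), and 0 had an adjusted p under 0.05 or an unadjusted one (edgeR, with and without the block). The smallest p values were at FYN, a kinase of the Src family, at −0.46 ± 0.233 (49.8 ± 11.2 against 70.8 ± 12.7 CPM), and at FLNA, an actin cross-linker, at −0.57 ± 0.304. Of 26 basement membrane partners and other laminin receptors 22 were tested, 5 above 0 and 17 below (median −0.127), and 0 passed the adjusted threshold while 2 had an unadjusted p under 0.05 (edgeR; 0 and 0 without the block). These were NID2, which links laminin to type IV collagen, at −0.46 ± 0.202, and NTN1, a laminin-related guidance protein, at −0.62 ± 0.279 (adjusted p = 0.675 and 0.682, edgeR).

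Of 30 other integrin ligands 28 were found by symbol, and 20 of these were tested. Of the 20, 11 were above 0 and 9 below (median 0.00919). The adjusted threshold was passed by 0, and 4 had an unadjusted p under 0.05, against 7.09% of all tested genes (edgeR, 0 and 1 of the 20 without the block). VCAM1, the adhesion molecule bound by the ITGA4 and ITGA9 products, had the smallest p of the 3 lists. It had 13.7 to 111 CPM in hypoxia (median 37.7) and 25.7 to 267 CPM in normoxia (median 76.5). The groups overlapped widely, while the hypoxia library was lower at each of the 6 numbers, with a log2 fold change of −0.95 ± 0.238 (adjusted p = 0.225, edgeR). LTBP1, a matrix protein that anchors latent TGF-beta, was likewise lower at 6 of 6 numbers, at 163 ± 18.6 against 222 ± 32.8 CPM, with a log2 fold change of −0.45 ± 0.173 (adjusted p = 0.602, edgeR). A shared direction at all 6 numbers was seen at 3 of the 20 ligands and at 4.26% of all tested genes.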

How the data were processed

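The deposited files used were 12 tables of raw read counts per gene symbol, 1 per library. Per the submitters' processing notes, the tools were HTSeq, Bowtie2, Picard, edgeR and MACS2, with no version named. Genome build, annotation, counted feature type and strand setting were not given in the sources used here. DNA reads carry no strand of a gene, so reads of overlapping genes, such as one gene lying inside another, cannot be told apart. Rows naming no gene (88 to 93% of reads outside any feature, 4.12 to 10.3% of low quality, 0.00502 to 0.00948% ambiguous) were left out. The deposited peak lists and the input sample were not analysed here.

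Counts were tested with edgeR 4.0.16 under R 4.3.3 (quasi-likelihood fit after TMM scaling, genes kept by filterByExpr at a minimum count of 10 and at least 15 in total) with title number as a block, and p-values were adjusted over all 11868 tested genes at a threshold of 0.05. The standard error was taken as the size of the log2 fold change divided by the square root of the F statistic. DESeq2 1.42.0 was an alternative. The script was tested on simulated data. Figures were drawn with matplotlib 3.10.9 in Python 3.11.15. All 38 member symbols matched the RefSeq table of assembly Sscrofa11.1, which was used for names and neighbours. Each of the 66 pairs of libraries differed by more than sampling noise (lowest chi-square over its degrees of freedom 1.26).

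The titles' numbers pair the libraries by rule: after group means were removed, the correlation across genes between the 2 libraries of a number was 0.13 to 0.46 (mean 0.346), all above 0.1. For numbers 33 and 4 a library of the other number correlated more closely, at 0.494. The biological coefficient of variation was 0.21 with and 0.305 without the block.

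The members, the lists and the tests were chosen with earlier results of these data known. Values by library were planned for the 3 integrin and 2 laminin genes with the smallest p in each direction, for the member with the highest mean CPM in each role, and for the 2 genes with the smallest p in each partner list. The text gives most of them as ranges with medians or means with SD. ITGAL, FLNA, NID2 and NTN1 have only a log2 fold change. The genes that differed between title numbers, the 4 called genes, other members and cell type markers were named after their values were seen. Of the members, 1 entered every count and median but is not reported here by name. The planned order of levels per coding length was not run, because no lengths were used here.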

Additional observations from a re-analysis of the deposited data

Results flagged for a closer look

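In 3 of 62 groups of 6 libraries, 1 library lay far from the other 5, with a gap to its nearest neighbour above 0.625 of the group's range. Chance gives about 1 in 20 such groups. ITGA1 was at 405 CPM in the normoxia library of number 33, from 147 reads, and the nearest library was at 259 CPM. ITGA8 was at 357 CPM in the hypoxia library of number 110, with the nearest at 272 CPM, and the normoxia library of the same number was also the highest of its group. ITGB8 was at 241 CPM in the normoxia library of number 21, from 50 reads, with the nearest at 92.3 CPM.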

How the results depend on the processing

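No integrin or laminin gene had an adjusted p under 0.05 for hypoxia against normoxia under any alternative run, including the fit without the replicate block. Over all genes the 4 calls became 0 without the replicate block, 0 with total reads as library size, 9 with no count filter, 0 in lane 7 only, 0 without numbers 33 and 4, and 0 to 12 leaving out each number in turn (0 without number 110, 33 or 4, 1 without 49 and 12 without 21). The members' median log2 fold change was −0.171 without the block, −0.0148 in lane 8 only, and −0.135 to −0.0464 leaving out each number (−0.0464 without 110). Of the 16 genes followed through the alternatives, signs turned at 5. ITGA9 was 0.0182 with library size only, 0.0959 in lane 8, 0.0138 without numbers 33 and 4, and −0.106 to 0.122 leaving out each number. ITGAL was 0.0203 with library size only, 0.137 in lane 8, and −0.1 to 0.11 leaving out each number. ITGB6 was −0.129 in lane 7, and −0.0625 to 0.127 leaving out each number. In lane 8, which holds 2 numbers, ITGA10 was 0.0799 and LAMB1 0.0467. Genes that differed between numbers became 942 (DESeq2), 2303 (no filter), 834 (lane 7), 296 (without 33 and 4) and 884 to 1935 (leaving out each number; 919 without 16, 884 without 33, 954 without 49), from 1520. Members became 3 in lane 7 (9.68%, against 7.23% of all tested genes), 1 without 33 and 4 (3.23 against 2.52%), and 3 to 7 leaving out each number (3 without 110 or 16), from 5. Leaving out each number, the shares ran from 9.09 against 9.75% without 110 to 22.6 against 14.2% without 4. Members stayed at 5 with DESeq2 (16.1 against 7.94%) and were 7 of 38 with no filter (18.4 against 9.09%). Of the other members, ITGB8 was 0.23, ITGB3 −0.118 and ITGA11 0.00814 without number 21, each with its sign turned. The median level over the 38 members was 101 CPM, 89.5 CPM on total gene reads and 2.12 CPM on all reads of the table. The cause of these shifts was not tested. Without a pair, fewer libraries enter the fit. Few reads per gene limit what can be seen at members under about 10 reads per library.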

Other observations

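The normoxia library of number 21 had the fewest gene reads, 263578, and among the 31 tested members it was the highest of the 12 libraries at 6 and the lowest at 4. The normoxia library of number 33 was also the highest at 6, and the hypoxia library of number 16 the lowest at 5. The normoxia library of number 21 had the lowest share of reads in genes (1.69%), the highest of low quality (10.3%) and the lowest TMM factor (0.889). ITGA3, ITGB5 and LAMB2 had 1 read each there and were under 10 CPM in no other library. Of the 7 members not tested, ITGA7, ITGB4 and LAMB3 were also lowest there, at 9.66, 9.66 and 4.83 CPM.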
